A study of Mus musculus with 12 samples.

Results

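The comparison described here sets 3 p53 controls against 3 BaxBak controls, 6 of the 12 samples of the study, chosen by genotype alone. Each sample was RNA from mouse cerebellum (C57BL/6, postnatal day 3), hybridised to an array that measures exon regions and exon junctions separately. The p53 controls were homozygous for p53-loxP and the BaxBak controls were homozygous for Bax-loxP and Bak--/-, and both groups had intact Atr. The other 6 samples, 3 Atr p53 mutants and 3 Atr BaxBak mutants, carried the same alleles as the respective controls and were also homozygous for Atr-loxP. They are used to ask whether a difference between backgrounds appears again in samples that the control comparison does not contain. All 12 carried Math1-Cre, a recombinase expressed in the granule cell lineage. Floxed Bax, p53 or Atr was thus removed in that lineage and stayed intact in other cells. In the BaxBak controls and the Atr BaxBak mutants, Bak was absent from every cell. Backcross generations are not stated, and nothing says that replicates were different litters. The p-values therefore weigh the groups against a spread between samples that may be technical.

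p53, encoded by Trp53, is a transcription factor that is activated by DNA damage and raises genes of cell cycle arrest and apoptosis, among them Cdkn1a, Mdm2 and Bbc3. Bax and Bak (Bak1) are the proteins that open the outer mitochondrial membrane once the apoptotic signal is given, and they act downstream of p53 and of the BH3-only protein that Bbc3 encodes. In the young cerebellum, granule cell precursors divide in the outer layer under the influence of sonic hedgehog. They are the most abundant dividing cells of this tissue, and both p53 and Bax govern whether a damaged precursor dies. The p53 controls therefore lack the transcription factor in this lineage, and the BaxBak controls have it but lack the machinery that executes death.

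The promoters of 3 genes are shown because p53 binds pairs of short cores, and these genes are the deleted factor itself and a pair of its classical targets that behaved differently in the comparison. Each is the 250 bases before a start of the gene in RefSeq (GRCm38.p6), on the + strand. Trp53 had 1 such window, Bbc3 had 3 and Cdkn1a had 2. In each gene only 1 window held a marked pair, and that window is shown. Capitals mark a pair of cores with 6 bases between them. A core is CNNG with A or T at both middle bases, a pattern that reads the same on both strands. The Trp53 window is chr11:69580109-69580358, the Bbc3 window chr7:16309333-16309582 and the Cdkn1a window chr17:29090729-29090978.
Trp53: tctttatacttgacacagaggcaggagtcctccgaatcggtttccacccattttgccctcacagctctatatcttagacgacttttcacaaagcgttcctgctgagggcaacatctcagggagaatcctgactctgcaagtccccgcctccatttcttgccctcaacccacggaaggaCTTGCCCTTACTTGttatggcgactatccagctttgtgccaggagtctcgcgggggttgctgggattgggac
Bbc3: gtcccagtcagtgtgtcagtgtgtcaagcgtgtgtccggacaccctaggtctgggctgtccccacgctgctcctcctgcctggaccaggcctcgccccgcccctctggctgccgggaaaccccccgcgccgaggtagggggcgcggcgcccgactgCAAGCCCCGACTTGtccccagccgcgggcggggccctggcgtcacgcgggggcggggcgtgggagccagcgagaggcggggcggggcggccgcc
Cdkn1a: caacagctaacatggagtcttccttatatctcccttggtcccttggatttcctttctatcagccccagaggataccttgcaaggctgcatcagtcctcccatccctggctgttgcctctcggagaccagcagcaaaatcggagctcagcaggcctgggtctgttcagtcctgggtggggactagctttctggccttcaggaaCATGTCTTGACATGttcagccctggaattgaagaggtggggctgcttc
Of 32851 RefSeq promoter windows of this length, 1917 (5.84%) hold such a pair. Of the 42 p53 targets that the files name, 33 had windows, and 4 of their 46 windows held one. A match describes the letters only.

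The arrays were even in overall signal, with medians from 6.46 to 6.49 on the log2 scale. Negative control probe sets averaged 4.23 in the p53 controls and 4.11 in the BaxBak controls. Probe sets of chromosome Y averaged 3.26 in BaxBak control 1 and from 3.59 to 3.78 in the other 5 controls, a difference that was entered as a covariate among the alternatives. Of 719071 probe sets tested, 437027 lie in exon regions and 282044 span junctions.

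Few probe sets were called between the control groups, and many of those called differed by a large amount. Without adjustment, 10.2% of all probe sets had a p under 0.05 from limma, so the calls do not count every difference. limma called 693 of 719071 probe sets (0.0964%) at an adjusted p under 0.05, 368 higher (0.0512%) and 325 lower (0.0452%) in the p53 controls. Their median difference was 1.41 on the log2 scale in absolute size, 542 differed more than 2-fold, 193 more than 4-fold and 35 more than 16-fold as measured. In 155 the lower group lay under the negative controls, and in 27 both groups did. With such lower groups raised to the negative controls the counts were 484, 155 and 26. In all 693 the 3 values of one group lay outside the 3 of the other, which was so for 17.0% of all probe sets. Without BaxBak control 1 the count was 321, without BaxBak control 2 it was 306, and without p53 control 3 it was 407. With the 6 control samples alone it was 246. Identical values in all 12 samples occurred in 22 of the called probe sets, leaving 677 distinct ones.

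The 3 largest differences as measured were in junctions that were near background in one background and bright in the other. A junction on chromosome 7 between identifiers named Rcn3 and Flt3l, 26 genes from Bax, read 3.88, 3.09 and 3.86 in the BaxBak controls and 10.77, 10.83 and 9.52 in the p53 controls. Its BaxBak values lay under the negative controls, so that it was at least 76.8-fold higher in the p53 controls (adjusted p = 6.09e-05 from limma). A junction on chromosome 11 between identifiers named Ube2b and Arf1, 143 genes from Trp53, went the other way. It read 9.89, 9.74 and 9.62 in the BaxBak controls and 2.88, 3.22 and 2.95 in the p53 controls, at least 45.8-fold lower (adjusted p = 7.56e-09 from limma). This junction was 1 of a run of 4 called junctions, all lower. The run was placed at the same distance from Trp53 as a run of exon regions described below. Another junction on chromosome 7, between identifiers named Hps5 and Spty2d1 and 52 genes from Bax, read 2.62, 2.18 and 2.63 in the BaxBak controls against 8.72, 8.93 and 8.59 in the p53 controls, at least 24.9-fold higher. The groups were far apart in each of these 3 junctions, and the spread within a group was largest in the first. Where a group lay under the negative controls, bounds were taken against the higher of each array's negative control mean and the probe set's own value.

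The called probe sets were unevenly spread over the genome. Chromosome 5 had the highest share of called probe sets among the placed chromosomes (113 of 46210, 0.245%), followed by chromosome 7, which carries Bax (115, 0.22%), chromosome 17, which carries Bak1 (62, 0.185%), and chromosome 11, which carries Trp53 (99, 0.181%). Chromosome 12 (3, 0.0121%), chromosome 2 (14, 0.0226%) and chromosome 10 (8, 0.0239%) were among the lowest, and none of 4195 probe sets of chromosome Y was called. On chromosome 7, 90 of 115 were higher in the p53 controls, and on chromosome 11, 74 of 99 were lower.

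On chromosomes 7, 17 and 11 calls were denser within 250 genes of the engineered gene than on the rest of the chromosome. Probe sets were placed between RefSeq protein-coding genes by the order of their identifiers, and 681 of the 693 called ones could be placed. Within 250 genes on either side of Bax, 66 of 15930 probe sets were called (0.414%), against 49 of 36461 (0.134%) on the rest of chromosome 7. Around Bak1 it was 61 of 15111 (0.404%), and the rest of chromosome 17 held 1 call among 18358 (0.00545%). Around Trp53 it was 71 of 16111 (0.441%), against 28 of 38561 (0.0726%) on the rest of chromosome 11. The same window around Atr, which is floxed in neither control group, held 5 calls among 19669 (0.0254%). The 3 windows together held 198 of the placed calls (29.1%) in 6.77% of the placed probe sets. With windows of 100 genes they held 137 (20.1%) in 2.94%. Around Bax 62 of 6351 were then called (0.976%) and around Bak1 46 of 6931 (0.664%). Around Trp53 it was 29 of 7227 (0.401%), no denser than in the wider window. The rest of chromosome 11 then held 70 calls. Direction differed between the windows of 250 genes. Around Bax 56 of 66 were higher in the p53 controls, around Bak1 45 of 61 were, and around Trp53 61 of 71 were lower.

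Dense stretches of calls lay both near the engineered genes and away from them. In bins of 50 genes, 22 of 425 bins held at least 10 calls each, and together they held 354 of the placed calls (52.0%) in 5.68% of the placed probe sets. Of these bins, 10 overlapped the windows of 250 genes (173 calls, 25.4% of the placed calls in 2.26% of the placed probe sets) and 12 did not (181 calls, 26.6% in 3.43%). The densest were inside the windows, on chromosome 7 from Syngr4 to Htatip2 (30 calls, 2.19% of its probe sets, 29 of them higher in the p53 controls) and on chromosome 11 from Zfp692 to Wnt9a (20 calls, 2.15%, all lower). Outside them, a bin of chromosome 5 from Ccdc146 to Xrcc2 held 37 calls (1.74%), 33 of them higher, and that chromosome carries none of Bax, Bak1, Trp53 and Atr. On chromosome 15 a bin from Rxfp3 to Erich5 held 19 calls (0.833%), 15 of them higher.

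**Figure D1:**
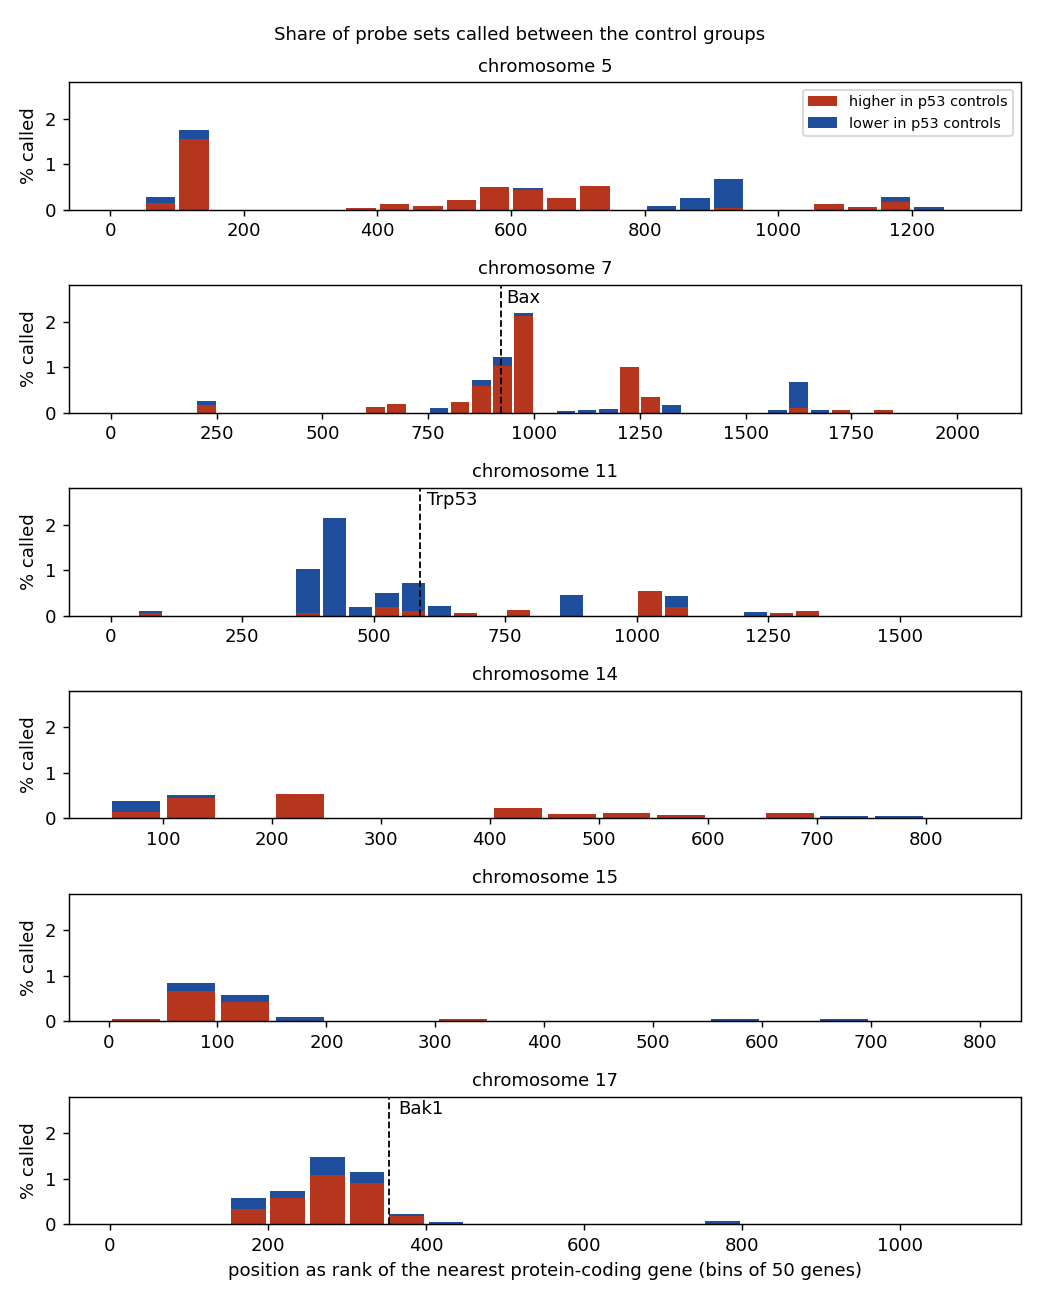
Share of probe sets called between the control groups (y axis, percent) in bins of 50 protein-coding genes along chromosomes 5, 7, 11, 14, 15 and 17, the 6 with the highest shares (x axis, rank of the gene on its chromosome), red for higher and blue for lower in the p53 controls. Dashed lines mark the engineered genes; chromosome 7 rises to 2.19% beside Bax, and the bins of chromosome 17 with calls lie almost wholly around Bak1.

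Neighbouring probe sets often moved together. In 17 runs, at least 4 called probe sets of one kind lay no more than 5 identifiers apart, and these runs held 92 of the 693 calls (13.3%). On chromosome 17 all 9 exon regions in a run between identifiers named Cuta and Taf11 were higher in the p53 controls. RefSeq places 8 genes of the same strand between those names, among them Bak1, the gene that the BaxBak animals lack, but the files give these exon regions no name. Their mean log2 signal was 5.42, 5.60 and 5.50 in the BaxBak controls and 8.81, 9.03 and 8.96 in the p53 controls, with differences from 1.06 to 4.46 in 8 of the exon regions. In the other one the BaxBak controls lay under the negative controls, and the p53 controls were at least 41.8-fold higher. The Atr BaxBak mutants read 5.45, 5.59 and 5.60 and the Atr p53 mutants 8.70, 8.70 and 8.92. All 6 samples of one background lay apart from all 6 of the other. A run of 5 junctions between identifiers named Cuta and Nudt3, again with Bak1 among the genes between, was higher by 1.02 to 3.44 in 3 junctions and at least 6.16-fold and 12-fold in the 2 whose BaxBak controls lay under the negative controls.

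On chromosome 11 all 9 exon regions of a run between identifiers named Gemin5 and Snap47, 143 genes before Trp53, were lower in the p53 controls. Their mean was 8.74, 8.77 and 8.62 in the BaxBak controls and 5.08, 4.85 and 5.01 in the p53 controls, with differences from -5.22 to -1.64 in 7 of the exon regions. In the other 2 the p53 controls lay under the negative controls and were at least 7.29-fold and 25.0-fold lower. The Atr BaxBak mutants read from 8.87 to 8.95 and the Atr p53 mutants from 4.87 to 5.41. On chromosome 5, 2 runs of 5 exon regions each lay between identifiers named Orc5 and Pus7. One of them read 8.47, 8.46 and 8.19 in the BaxBak controls and 10.21, 10.38 and 10.25 in the p53 controls. The other held 3 higher and 2 lower exon regions, from -2.96 to 3.49, so that its neighbouring exon regions changed in opposite directions.

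In a stretch of chromosome 1 the p53 controls did not read alike. On chromosome 1, 7 exon regions between identifiers named Eif2d and Rab29 averaged 6.19 in p53 control 1 and 6.92 and 6.98 in p53 controls 2 and 3, against 4.69, 4.82 and 4.49 in the BaxBak controls. The Atr p53 mutants read 6.10, 5.93 and 6.17. A run of 5 junctions between identifiers named R3hdm1 and Rab29 averaged 6.54 in p53 control 1 and 7.31 and 7.38 in p53 controls 2 and 3. In these junctions the Atr p53 mutants read 6.59, 6.23 and 6.69. The label of p53 control 1 begins with the number 1843, as do those of the 3 Atr p53 mutants, whereas p53 controls 2 and 3 carry 1845. The labels do not say what the number means.

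**Figure D2:**
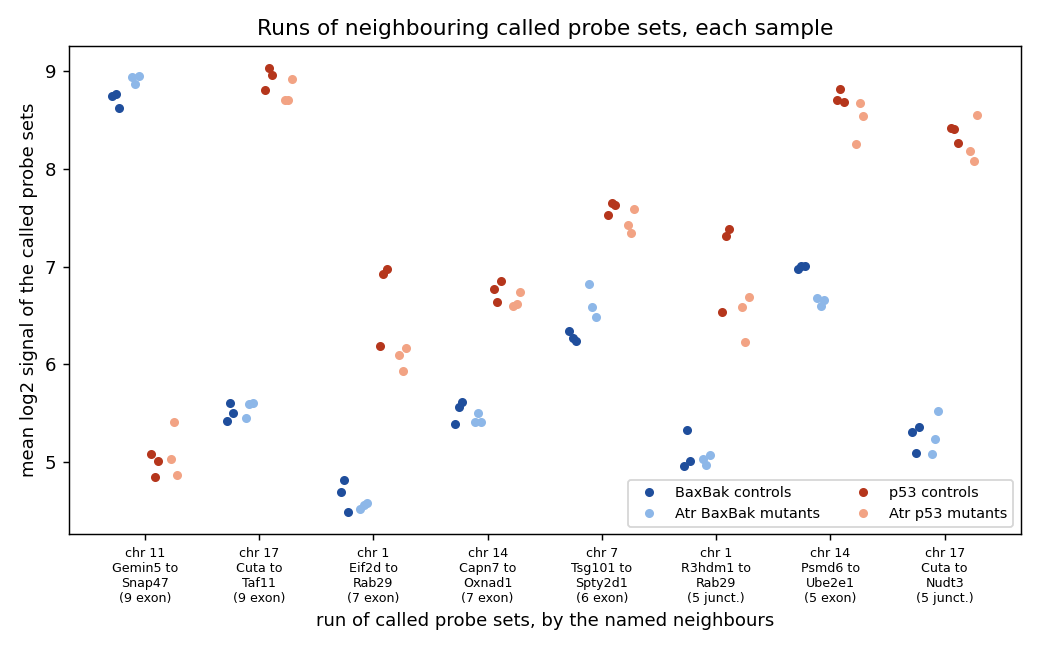
Mean log2 signal (y axis) of the called probe sets in 8 runs of neighbouring called probe sets (x axis, by the nearest named identifiers), 1 point per sample, blue for BaxBak and red for p53 backgrounds, dark for controls and light for Atr mutants. In each run the 6 BaxBak samples lie apart from the 6 p53 samples; the widest gaps are on chromosomes 11 and 17.

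Most of the differences were seen again with Atr deleted. The contrast of Atr p53 mutants with Atr BaxBak mutants shares no sample with the control contrast. Both use the same estimate of the spread from all 12 samples, so their calls are not independent. It had 25370 calls (3.53%). Of the 693 probe sets called between the controls, 641 had the same sign there, against 56.8% of all probe sets, 473 were called the same way and 1 the opposite way. The difference between the contrasts passed the test for 24 of the 693, and for 582 probe sets over the array. In the windows around Bax, Bak1 and Trp53, 193 of 198 calls had the same sign. The called probe sets were then sorted by which control group each Atr mutant group lay nearer to. In 518 (74.7%) both mutant groups lay nearer to the controls of their own background. In 102 (14.7%) both lay nearer to the p53 controls, so that the BaxBak controls stood apart, and in 62 (8.95%) both lay nearer to the BaxBak controls. The remaining 11 were crossed.

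Every class held probe sets outside the windows around the engineered genes. Chromosome 5, which carries none of these genes, held 106 of the probe sets that split by background. Chromosome 7 held 94 of them, chromosome 11 held 92 and chromosome 17 held 54. Of those that split by background, 169 of 518 (32.6%) lay in the windows around Bax, Bak1 and Trp53, which hold 6.77% of the placed probe sets. The share was 20 of 102 (19.6%) where the BaxBak controls stood apart and 9 of 62 (14.5%) where the p53 controls did. Of those 62, 19 were on chromosome 3, 12 on chromosome 7 and 8 on chromosome X. A junction on chromosome X between identifiers named Cnksr2 and Egfl6 read 5.45, 6.03 and 2.57 in the p53 controls, and from 10.04 to 10.45 in the other 9 samples (difference -5.71 ± 0.66 SE, adjusted p = 0.00869 from limma). Of the 102 in which the BaxBak controls stood apart, 16 were on chromosome 15 and 13 on chromosome 4. A junction named March6, a ubiquitin ligase of the endoplasmic reticulum, was 1 of those on chromosome 15. It read 5.04, 4.78 and 5.21 in the BaxBak controls and 8.34, 8.23 and 7.89 in the p53 controls. The Atr BaxBak mutants read 7.85, 7.73 and 7.71, close to the p53 controls and far from the controls of their own background. Names were given to 72 of these 102 probe sets and to 32 of the 518 that split by background. A probe set bears a gene symbol only where it passed the authors' own test of Atr BaxBak mutants against these same BaxBak controls, which held for 30894 probe sets (4.3%) of 7898 genes. Differences and counts of named genes are therefore selected on the BaxBak controls and are given as descriptions.

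**Figure D3:**
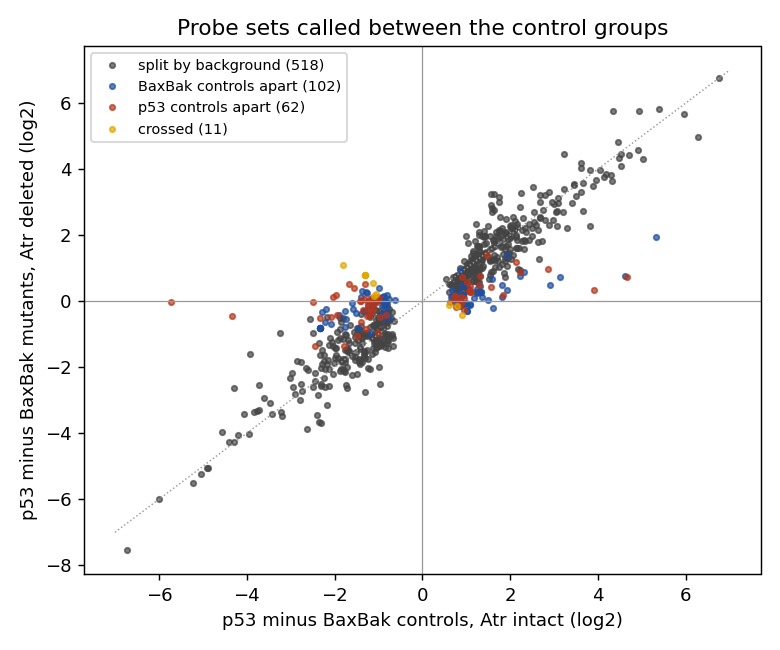
Log2 difference of p53 from BaxBak background for the 693 called probe sets, with Atr intact (x axis, controls) and with Atr deleted (y axis, mutants), coloured by which control group the mutants lay nearer to; the dotted line is equality. The 518 probe sets that split by background follow the line. The place of each class on the y axis follows in part from this sorting. Those in which 1 control group stood apart are not all near 0 there. A chromosome 11 junction among them read 8.36, 4.58 and 8.15 in the Atr BaxBak mutants and 9.31, 8.68 and 8.90 in the Atr p53 mutants.

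Trp53, the gene floxed in the p53 controls, was lower there. The mean of its 6 named probe sets was 9.16, 9.0 and 9.05 in the BaxBak controls and 8.61, 8.79 and 8.60 in the p53 controls, a log2 difference of -0.40 ± 0.06 (SE, adjusted p = 0.00306 from limma over 7898 named genes). The groups did not overlap, which was so for 41.4% of all named genes. The named probe sets included dim ones, with differences of 0.43 and -0.08. In whole cerebellum, loss from some cells and less RNA per cell cannot be told apart, and cells outside the granule lineage keep the gene. The junction with the smallest p among the named probe sets of Trp53 read 10.68, 10.71 and 10.65 in the BaxBak controls and 9.68, 9.93 and 9.55 in the p53 controls (difference -0.96, adjusted p = 0.019 from limma over the whole array). With Atr deleted the gene mean differed by -0.96, from 9.74 in the Atr BaxBak mutants to 8.78 in the Atr p53 mutants. The p53 controls and the Atr p53 mutants were thus close to each other, and the Atr BaxBak mutants were above the BaxBak controls. The 6 probe sets bear a name because they differed between Atr BaxBak mutants and these BaxBak controls. A gap between those groups was therefore favoured in advance. Bax, Bak1 and Atr bear no name in the files and were not analysed here by name.

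The exon regions of Trp53 showed a fairly even step along the gene. From the first to the last exon region named Trp53 there are 18 exon regions, most of them unnamed, and 11 had a mean log2 signal above 8 over all 12 samples, a level chosen after the values were seen. All 11 were lower in the p53 controls, by differences from -0.97 to -0.51, and 2 of them were called. One of these read 11.10, 11.03 and 11.05 in the BaxBak controls and 10.33, 10.20 and 10.02 in the p53 controls. With Atr deleted the same 11 differed by -1.38 to -0.98 and all were called, while in none did the change in size between the contrasts pass the test. The 7 dimmer exon regions differed by -0.35 to 0.43.

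**Figure D4:**
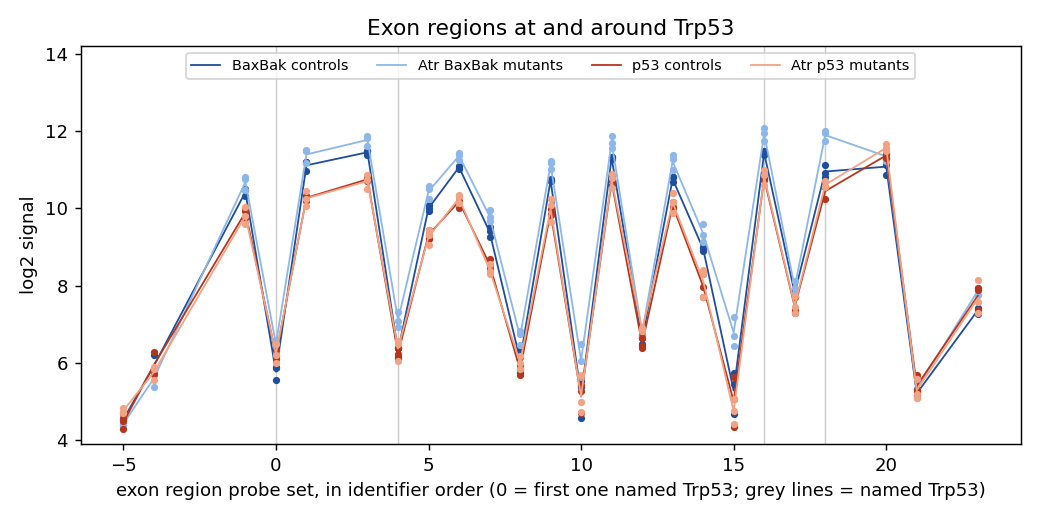
Log2 signal (y axis) of exon regions at and around Trp53 in the order of their identifiers (x axis, 0 is the first named Trp53, grey lines mark named ones), with a point per sample and a line through each group's means. Over the 11 bright exon regions both p53 groups (red) lie below both BaxBak groups (blue), by 0.51 to 0.97 between the controls.

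Known p53 target genes were called in both directions. Of 58 targets, 42 were named, and 7 of these were called, 2 higher and 5 lower in the p53 controls, beside 17.2% of all 7898 named genes (7.53% higher, 9.66% lower). The median difference of the 42 was 0.00 on the log2 scale, against -0.02 over all named genes. None of the 42 combined a called gene mean with array calls in that direction only. This held for 0.988% of all named genes. Sesn2, a stress sensor that restrains growth signalling, fell. It read 8.21, 8.24 and 8.28 in the BaxBak controls and 7.64, 7.65 and 7.68 in the p53 controls (log2 difference -0.59 ± 0.11 SE, adjusted p = 0.00611 from limma). Bbc3, which encodes the BH3-only protein Puma, fell from 7.15, 7.20 and 7.30 to 6.98, 6.67 and 6.72 (difference -0.43, adjusted p = 0.0154 from limma). Neither gene's groups overlapped, which was so for 41.4% of all named genes. Trp53inp1, a p53-induced nuclear protein, fell by 0.33 and Zmat3, which encodes a zinc finger protein, by 0.21 on the log2 scale. Bloc1s2, a subunit of a lysosome-related complex that rests on 1 probe set, fell by 0.64. Abhd4, a lipase that rose by 0.44, read 10.20, 10.23 and 10.25 in the BaxBak controls and 10.57, 10.67 and 10.76 in the p53 controls. Fuca1, a lysosomal fucosidase on 1 probe set, rose by 0.47. Sesn2 and Abhd4 were called whichever control was left out. Bbc3 was not called without BaxBak control 3, p53 control 2 or p53 control 3 (adjusted p up to 0.0613 from limma), nor was Bloc1s2 without p53 control 3 (0.0529). Trp53inp1 was not called in 4 of the 6 fits that left out 1 control (up to 0.0957), Zmat3 in 3 (up to 0.0878) and Fuca1 in 5 (up to 0.15).

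Several classical targets did not pass the test. Cdkn1a, the cell cycle inhibitor p21, read 9.59, 9.39 and 9.35 in the BaxBak controls and 9.53, 9.56 and 9.47 in the p53 controls (log2 difference 0.08 ± 0.07 SE, adjusted p = 0.465 from limma). Mdm2, the ligase that degrades p53, read 9.17, 9.23 and 9.21 against 9.08, 9.16 and 9.14 (difference -0.08 ± 0.05 SE, adjusted p = 0.307 from limma). Ccng1, a cyclin that regulates p53, read 9.65, 9.64 and 9.46 against 9.45, 9.39 and 9.36 (difference -0.18 ± 0.11 SE, adjusted p = 0.282 from limma). The Cdkn1a groups overlapped and those of Mdm2 and Ccng1 did not. A lack of overlap was common, in 21 of the 42 named targets and in 41.4% of all named genes. With Atr deleted, where these genes were named for a difference of the Atr BaxBak mutants from the BaxBak controls, the differences were -1.36 for Cdkn1a, -0.79 for Mdm2 and -1.15 for Ccng1.

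**Figure D5:**
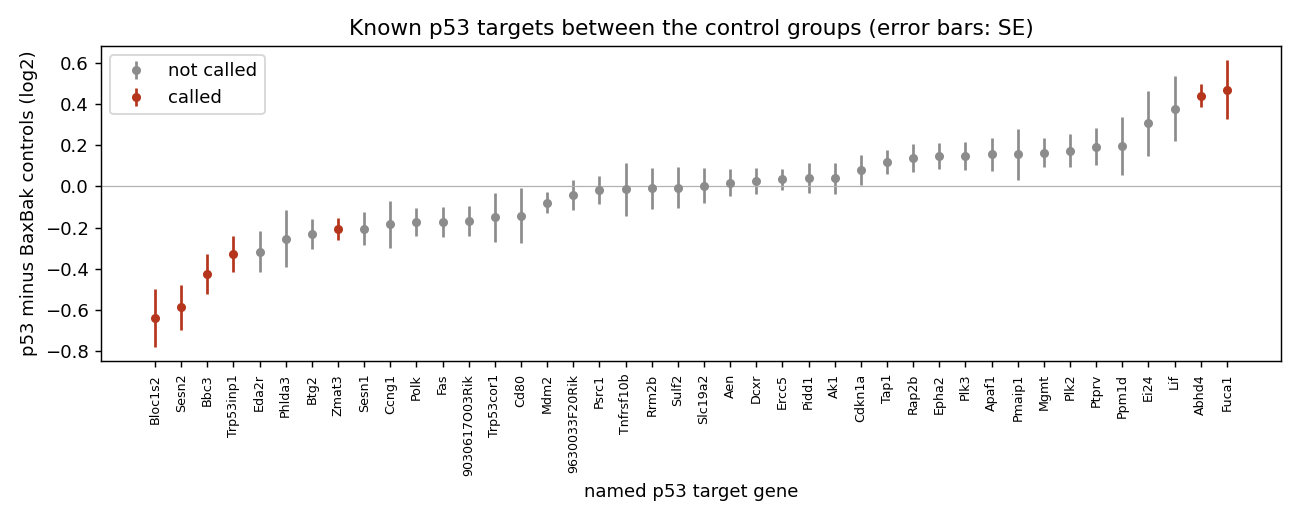
Log2 difference of p53 controls from BaxBak controls (y axis) for the 42 named p53 targets (x axis), points with SE bars, red for the 7 called genes. The points run from -0.64 (Bloc1s2) to 0.47 (Fuca1), with a median of 0.00.

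Among partners and regulators of p53, 16 of 34 were named and 3 were called (18.8%, beside 17.2% of all named genes), all lower. They were Trp53 itself, the family member Trp73 and the deacetylase Sirt1. Trp73 read 6.67, 6.73 and 6.90 in the BaxBak controls and 6.36, 6.38 and 6.43 in the p53 controls (difference -0.38 ± 0.09 SE, adjusted p = 0.0212 from limma). Sirt1 fell by 0.29. Trp73 was called in only 1 of the 6 fits that left out a control, the one without BaxBak control 1 (adjusted p up to 0.0754 from limma in the others), and Sirt1 was not called without BaxBak control 2, BaxBak control 3 or p53 control 3 (up to 0.0748). Chek1 and Chek2, the checkpoint kinases, and Mdm4, a p53 inhibitor, were not called. Of the mitochondrial apoptosis genes, which act with Bax and Bak, 16 of 35 were named and Bbc3 was the 1 called. Bid, a BH3-only protein that activates Bax, differed by 0.16 (adjusted p = 0.0784 from limma), and the others that were named ranged from -0.12 to 0.41.

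Genes of replication and mitosis were called at shares of 4.35% and 12.2%, beside 17.2% of all named genes. Of 46 genes of G1/S and DNA replication, all were named, 2 were called and both were higher in the p53 controls. Pole, the catalytic subunit of DNA polymerase epsilon, read 7.79, 7.89 and 7.76 in the BaxBak controls and 8.36, 8.42 and 8.45 in the p53 controls (difference 0.59 ± 0.12 SE, adjusted p = 0.00906 from limma), and Pold1, of polymerase delta, rose by 0.32. The median of the 46 was 0.00. Of 41 named genes of G2/M and mitosis, 1 was higher and 4 were lower. Sgol1, which protects sister chromatid cohesion, read 8.43, 8.56 and 8.65 in the BaxBak controls and 8.08, 7.92 and 7.72 in the p53 controls (difference -0.64 ± 0.12 SE, adjusted p = 0.00572 from limma). Anln, Cenpe and Hmmr, genes of cytokinesis and the spindle, fell by 0.43, 0.38 and 0.33, while Spc24, a kinetochore subunit, rose by 0.41. The median of this list was -0.16, and in 26 of its 41 genes the groups did not overlap, beside 41.4% of all named genes. Of 35 named DNA repair genes reported here, Brca2 fell, by 0.19. Pole, Sgol1, Anln and Spc24 were called whichever control was left out. Pold1, Cenpe and Hmmr were called only without p53 control 1 among the 6 such fits, with adjusted p up to 0.117, 0.11 and 0.167 from limma in the others, and Brca2 only without BaxBak control 1 (up to 0.16).

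A stricter count of named genes asks for a passing gene mean and for at least 1 of the gene's probe sets to pass over the whole array the same way, with none passing the other way. It left 78 of the 1358 called genes (0.988% of named genes), 35 higher and 43 lower. The count of 1358 was 681 without BaxBak control 2, 867 without BaxBak control 3 and 620 without p53 control 3. Of the 1358, the Atr mutants of both backgrounds lay nearer to the p53 controls in 1116, and 95 split by background. A name requires a difference of Atr BaxBak mutants from these BaxBak controls, which favours the first of these classes in advance. Over the 693 called probe sets, named or not, 518 split by background and in 102 the BaxBak controls stood apart. Of the 68 stricter genes with a place in the gene order, 12 lay within 250 genes of Bax, Bak1 or Trp53. The matching share of all named genes was not counted, so this count does not show an excess.

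Among called genes with at least 2 probe sets, the largest increase in the p53 controls was that of Spp1, which encodes the secreted phosphoprotein osteopontin. It read 7.07, 7.28 and 7.42 in the BaxBak controls and 8.97, 8.56 and 8.63 in the p53 controls (difference 1.46 ± 0.18 SE, adjusted p = 0.000764 from limma), and 8 of its 12 named probe sets were called over the array. The difference was 2.86 with Atr deleted. Galnt15, a glycosyltransferase that starts O-linked chains, read 5.24, 5.67 and 5.45 against 6.89, 6.65 and 6.79 (difference 1.32 ± 0.11 SE, adjusted p = 0.000116 from limma), and differed by 2.06 with Atr deleted. Both genes were thus higher in all 6 samples of the p53 background than in any of the BaxBak background. Gm26853 rose by 1.16, Timm44, a mitochondrial import subunit, by 0.99, and Cd37, a tetraspanin of leukocytes that RefSeq places near Bax, by 0.87. Cd37 read 6.20, 6.45 and 6.13 in the BaxBak controls and 7.04, 7.23 and 7.10 in the p53 controls, while both groups of Atr mutants lay between 6.88 and 7.10. Evi5, Stk3, Egfl6, Stx8 and Sctr rose by 0.86, 0.85, 0.82, 0.73 and 0.73. Of these 10 genes, 4 had the opposite sign with Atr deleted, Evi5 with -0.42, Timm44 with -0.25, Sctr with -0.24 and Cd37 with -0.04. The naming of genes through these BaxBak controls can favour such a change of sign in advance. Timm44 was not called in 4 of the 6 fits that left out 1 control (adjusted p up to 0.0842 from limma). For Stk3, a Hippo pathway kinase, and Stx8, a syntaxin, the brightest probe set differed by -0.15 and -0.13, so that their gene means rest on other probe sets.

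The 10 called genes with the largest fitted decreases and at least 2 probe sets included 3 whose p53 controls lay under the negative controls, where only a bound can be given. Pdgfd, a growth factor of the PDGF family, read 4.71, 4.82 and 4.33 in the BaxBak controls and 2.73, 2.71 and 3.13 in the p53 controls (adjusted p = 0.000155 from limma) and was at least 1.31-fold lower. Vnn1, a pantetheinase, was at least 1.86-fold lower and Naalad2 at least 1.01-fold. Of the genes measured above the negative controls in both groups, Gm10592 fell by 1.40 and A730046J19Rik by 1.04. Ccdc82, Slc7a3, Cd36, Depdc1b and Tex16 fell by 0.87, 0.85, 0.83, 0.82 and 0.82. Slc7a3, a cationic amino acid transporter, read 7.87, 8.03 and 7.81 in the BaxBak controls and 6.99, 7.13 and 7.02 in the p53 controls, and it also differed by -0.93 with Atr deleted (adjusted p = 5.03e-05 from limma). With Atr deleted 6 of the 10 had the opposite sign, Ccdc82 with 0.83, Vnn1 with 0.66, Depdc1b with 0.64, Tex16 with 0.41, Naalad2 with 0.30 and Cd36, a fatty acid receptor, with 0.27. Naming through these BaxBak controls can favour such signs here too, and their share over all named genes was not counted. Of the 6 fits that left out 1 control, Ccdc82 was not called in 3 (adjusted p up to 0.0676 from limma) and Depdc1b in 4 (up to 0.0799).

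Named genes beside the engineered loci were called in both directions, at shares of 25% beside Bax, 25% beside Bak1 and 22.7% beside Trp53, against 17.2% of all named genes. Of the 12 named genes listed beside Bax on chromosome 7, 2 rose (Cd37 and Tead2, a Hippo pathway transcription factor, by 0.87 and 0.33) and Dhdh, a dehydrogenase, fell by 0.38. Of 4 named and reported beside Bak1 on chromosome 17, Itpr3, a calcium channel of the endoplasmic reticulum, fell by 0.29, and Cuta, at the edge of the run described above, differed by 0.03. Of 22 named beside Trp53 on chromosome 11, 2 rose and 3 fell, among them Alox8, a lipoxygenase, by 0.67 and Trp53 itself. Dnah2, a dynein next to them, rose by 0.22. Cd37, Dhdh and Alox8 were called whichever control was left out. Of those 6 fits, Tead2 was not called in 4 (adjusted p up to 0.0625 from limma), Dnah2 in 4 (up to 0.0692) and Itpr3 in 5 (up to 0.139).

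Of 13 named markers of granule cell precursors, 2 passed (15.4%, beside 17.2% of all named genes). Atoh1, the lineage's defining factor, differed by -0.04, Barhl1 by -0.08, Zic1 by -0.09 and Pax6 by -0.12, none of them called. Neurod1, which drives granule cell differentiation, fell from 11.06, 11.10 and 11.43 to 10.62, 10.73 and 10.61 (difference -0.54 ± 0.10 SE, adjusted p = 0.00495 from limma), and Tlx3 rose by 0.44. Among 12 named genes of the sonic hedgehog response, Sfrp1, a secreted Wnt antagonist, fell by 0.49, while Gli1 and Ptch1, direct targets of the pathway, differed by 0.21 and -0.12 without passing. Of 10 named genes of postmitotic granule neurons, Plxna2, a semaphorin receptor, rose by 0.35 and Cdkn1b, a cell cycle inhibitor, fell by 0.37. Neurod1 was called whichever control was left out, and Sfrp1 in none of those 6 fits (adjusted p from 0.0522 to 0.132 from limma). Tlx3 was not called in 3 of them (up to 0.0632), Cdkn1b in 3 (up to 0.0884) and Plxna2 in 2 (up to 0.0701).

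Markers of other cells were called at shares from 0 to 66.7%, beside 17.2% of all named genes, and the lists are short. Of 13 named Purkinje cell genes, 2 rose, Foxp2 by 0.48 and Dab1 by 0.34. Of 11 named astrocyte and Bergmann glia genes, Slc1a3, the glial glutamate transporter, rose by 0.59, and of 11 interneuron genes Kit rose by 0.21. Eomes, a marker of unipolar brush cells, rose by 0.44 and was the 1 called of 4. None of 11 oligodendrocyte genes and none of 5 endothelial and pericyte genes was called by limma. Of 6 named microglia and macrophage genes, 3 rose and 1 fell (66.7%). Cd68, a lysosomal protein of phagocytes, read 8.64, 8.90 and 8.56 in the BaxBak controls and 9.02, 9.28 and 9.39 in the p53 controls. C1qc and Cx3cr1 rose by 0.52 and 0.32, and Mrc1, the macrophage mannose receptor, fell by 0.52. Slc1a3, Dab1 and Mrc1 were called whichever control was left out, and Cd68 was not called without p53 control 3 (adjusted p = 0.0573 from limma). Of the 6 such fits, Foxp2, Kit and C1qc were not called in 5 (adjusted p up to 0.0927, 0.128 and 0.108 from limma), nor Eomes and Cx3cr1 in 3 (up to 0.056 and 0.0706). Each of the 4 microglia and macrophage genes rests on 1 probe set, and RefSeq places Cd68 close to Trp53. In none of these lists did a called gene have array calls in its direction only, beside 0.988% of all named genes. The part of cell composition in the differences above was not tested. Of 7 named interferon response genes, Mx2 rose by 0.64 and Stat2 fell by 0.64.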

How the data were processed

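RNA of 12 samples in 4 groups of 3 was measured on exon and junction arrays. Per the labels' protocols, RNA came from cerebella without meninges and 500 ng went into labelling; another label says poly-A selected. The deposited values were log2 signals per probe set, made by the authors; how background was corrected and arrays were normalized, and the array's build, is not given in these sources. The submitters' processing notes list Partek. Of 725678 rows, 61 had no values and 6546 were controls. Symbols came from the authors' deposited table of step-up p-values and fold changes (the largest step-up p-value is 0.0499973), and 734 probe sets with several symbols were left out.

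A two-sided test in limma 3.58.1 (R 4.3.3; lmFit, eBayes) was fitted to all 12 samples with 1 mean per group and 8 residual degrees of freedom, contrasting p53 controls minus BaxBak controls. Benjamini-Hochberg adjustment ran over 719071 probe sets or, for means of a gene's named probe sets, over 7898 genes, at a threshold of 0.05. The fit was tested on simulated data. Probe set identifiers run in genome order along each strand (median rho with RefSeq gene order 0.9994, lowest 0.9899; their chromosome code equals that of RefSeq for 99.94%), and probe sets were placed by interpolation between named ones; chromosomes 18, Y and M were not placed. Named genes were Trp53, the 10 largest differences each way among called genes with at least 2 probe sets, and up to 4 members per gene list with the smallest p. Genes outside this rule, among them March6 and the p53 targets that were not called, were chosen after their values were seen. A gene of the DNA repair list and a gene of the list beside Bak1 are not reported here and were left out of those lists' counts after their values were seen. Called list members were added to the alternatives after seeing the data. Members and lists were chosen with earlier results of these data known. The number of arrays limits the precision.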

Additional observations from a re-analysis of the deposited data

Results flagged for a closer look

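Trp53 and 4 called p53 targets differed between backgrounds by unequal amounts with Atr intact and with Atr deleted, by a test of the interaction with Benjamini-Hochberg adjustment in limma. The symbols were assigned where Atr BaxBak mutants differed from BaxBak controls, which enter this interaction, so the tests are not free of selection. The difference with Atr intact minus that with Atr deleted was 0.55 for Trp53 (-0.40 against -0.96, adjusted p = 0.000704), 0.97 for Sesn2 (-0.59 against -1.56, adjusted p = 0.000602), 0.87 for Bbc3 (-0.43 against -1.29, adjusted p = 0.000625) and 0.64 for Abhd4 (0.44 against -0.20, adjusted p = 0.00024). It was -1.07 for Bloc1s2 (-0.64 against 0.43, adjusted p = 0.00111). Abhd4 and Bloc1s2 changed direction between the contrasts, and the other 3 kept theirs.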

How the results depend on the processing

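Trp53 stayed lower and called under all 14 alternatives run on it, with differences from -0.67 to -0.36 and adjusted p from 0.00158 to 0.017 (limma). Calls over the array numbered 693. They numbered 246 with the 6 controls alone, 1328 with a mean-variance trend in eBayes, 450 among exon regions alone and 302 among junctions alone. Leaving out 1 control gave 306 to 754. Named gene calls numbered 1358, 489 among genes with at least 3 probe sets, and 620 to 1043 with 1 control left out. Of 42 called list members other than Trp53, 16 were called in all 6 of these fits. The share of placed calls near Bax, Bak1 or Trp53 was 29.07%, 25.23% with the trend, 20.1% within 100 genes and 21.98% to 32.39% with 1 control left out; this share and its alternatives were chosen after seeing the data. The median of the p53 targets was 0.00, 0.0572 with each gene's brightest probe set and -0.0407 to 0.0515 with 1 control left out. With the brightest probe set 11 single genes turned direction: Atf3 to 0.59, Cdh7 to 0.19, Flcn to 0.12, Hist2h2bb to 0.0697, Slc6a5 to 0.0178, Xylb to -0.0124, Cuta to -0.0316, Myo10 to -0.0637, Plcb4 to -0.0885, Stx8 to -0.13 and Stk3 to -0.15. Pdgfrb turned to -0.053 with negative control signal as a covariate, and Cuta, at 0.0316, ranged from -0.000407 (without BaxBak control 2) to 0.0743 with 1 control left out. The cause was not tested in these cases. No paired analysis was possible because the labels give no replicate numbers. The number that starts each label, as a random block, left 692 calls, with an estimated correlation within blocks of 0.00172. None of these numbers occurs in both backgrounds, so this fit cannot separate them from genotype. Dim probe sets and probe sets without a name (all but 4.3%) limit what can be said of single genes.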
